A study of Mus musculus with 6 samples.

Results

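The Fos and Jun genes encode the proteins of AP-1, a transcription factor that binds DNA as a pair of basic leucine zipper proteins. The 8 genes described here are Fos, Fosb, Fosl1, Fosl2, Jun, Junb and Jund, with Atf3, a stress-induced leucine zipper protein that pairs with Jun proteins. They were taken by gene symbol from 23091 symbols in each of 6 libraries, and each symbol had 1 entry in every file. The study asked how IL-1β, an inflammatory cytokine, alters Th9 cells, the CD4 T cells that make IL-9. Naive CD4 T cells came from the spleen and nodes of wild-type C57/Bl6j mice aged 7 weeks. All cultures held 2 ng/ml TGFb, 20 ng/ml IL-4 and an IFNgamma blocking antibody, on plates coated for CD3/CD28. The 3 groups with IL-1β also had 10 ng/ml IL-1b, and the 3 groups without it had none. In each arm cells were taken after 1 h, after 3 days, or in vivo: CD45.2 cells were injected into CD45.1 mice after 3 days of culture and sorted 1 week later. The sources used here do not name the host tissue from which they were sorted. RNA was extracted from 300000 cells, and each group is 1 library, so the comparisons between libraries have no replicate check. How many mice gave cells is not stated in the sources used. The 2 libraries of 1 h were made from rRNA-depleted RNA and the other 4 from poly(A) RNA.

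AP-1 connects signals at the cell surface to transcription. Antigen receptor, cytokine and stress signals reach the MAP kinases, which induce Fos and Fosb within minutes and phosphorylate Jun; the Fos messages are short-lived and are destroyed through AU-rich elements in their tails. Fos proteins do not pair with each other and need a Jun partner, while Jun proteins also pair among themselves and with BATF, which acts with IRF4 at composite sites in T helper cells and is needed for Th9 differentiation in mice.

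Values are the authors' FPKM, read fragments scaled to transcript length and library size, so levels can be set beside each other per length. Each comes with the authors' interval, whose level the sources used here do not give. Genes with 5 FPKM or more in 1 library of the pair were compared. To be counted, higher or lower, a gene needed a 2-fold ratio of (FPKM + 1) and intervals that did not overlap. This rule of size describes these libraries and is no test of a treatment. The depth, which the files do not state, was estimated from the steps between low FPKM values at 1090000 fragments at 1 h with IL-1β and 470000 without it. It was 1450000 to 1810000 fragments in the other 4 libraries. Genes at 5 FPKM or more numbered 765 and 631 at 1 h with and without IL-1β, and 7313 to 8154 in the other 4 libraries, so the 1 h libraries resolve few genes. The summed FPKM of 12 T cell markers was 123 and 103 at 1 h with and without IL-1β, and 2886 to 3393 in the other 4 libraries. No T cell marker was listed at 0 in any library. The in vivo libraries also held transcripts of other cells. The 12 epithelial markers summed to 17427 FPKM in vivo with IL-1β and 6694 FPKM without it, none of them at 0, against 19.6 and 19.7 FPKM at day 3. At 1 h all 12 were listed at 0. The 1 h libraries held marker transcripts of other cells too. Myeloid markers summed to 173 and 137 FPKM there with and without IL-1β, above the T cell sums. Cd74 was the highest of them at 78.6 and 83.8 FPKM, followed by H2-Aa, H2-Ab1 and H2-Eb1. Of 20 myeloid markers 7 and 14 were listed at 0, with Cd14, Cd68 and Fcgr3 at 0 in both libraries. B cell markers summed to 22.4 and 27.7 FPKM. Erythroid and platelet markers summed to 256 and 238 FPKM, nearly all of it Hba-a1 (232 and 215 FPKM). The myeloid and erythroid sums thus rest on few genes. Of 9 measured myeloid markers 1, Tyrobp, was counted higher at 1 h with IL-1β (6.59 FPKM, listed at 0 without it), against 7.72% of compared genes. In bulk RNA, fewer cells of a type and less RNA per cell cannot be told apart.

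Fos, the prototype of its family and an immediate early gene, was far from even across the libraries. At 1 h Fos had 6.61 FPKM with IL-1β (interval 3.51 to 9.66) and 8.82 FPKM without it (3.07 to 14.3). At day 3 it had 5.13 FPKM with IL-1β (2.90 to 7.53) and 5.84 FPKM without it (3.43 to 8.17). In vivo it had 142 FPKM with IL-1β (115 to 145) and 30.3 FPKM without it (22.2 to 37.8). In FPKM the 4 cultured libraries overlapped in their intervals, and both in vivo libraries stood above all 4. The 1 h libraries differ from the other libraries in RNA selection as well as in stage. Among all symbols of its library, Fos ranked 527th and 274th at 1 h with and without IL-1β. In the same order it ranked 7244th and 7251st at day 3, and 357th and 2351st in vivo.

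Fosb, a second immediate early Fos gene, was nearly absent at day 3. It had 13.2 FPKM (9.73 to 16.5) and 7.68 FPKM (3.97 to 11.3) at 1 h with and without IL-1β. At day 3 it had 0.170 FPKM (0 to 0.482) with IL-1β and 0.618 FPKM (0.146 to 1.17) without it, which is about 0.999 and 4 estimated fragments. In vivo it had 61.8 FPKM (52.5 to 67.9) with IL-1β and 9.61 FPKM (6.99 to 12.3) without it. In FPKM the in vivo value with IL-1β stood alone, while the one without it overlapped both 1 h values. By rank among all symbols Fosb was 233rd and 342nd at 1 h and 1042nd and 5882nd in vivo, with and without IL-1β.

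Fosl1 and Fosl2 encode FRA1 and FRA2, Fos proteins that lack the strong activation domain of FOS. Fosl1 was listed at 0 in 5 of the 6 libraries and had 7.13 FPKM (2.79 to 11.2) in vivo with IL-1β, about 16.9 estimated fragments. Where it was listed at 0 in a poly(A) library, 3 fragments would be worth 1.00 to 1.28 FPKM. In FPKM, Fosl2 was the most even Fos gene, at 15.0 FPKM (11.9 to 17.9) and 10.5 FPKM (6.94 to 14.2) at 1 h with and without IL-1β. It had 9.32 FPKM (7.34 to 11.3) and 12.6 FPKM (10.4 to 14.8) at day 3, and 19.6 FPKM (16.4 to 22.9) and 19.1 FPKM (15.9 to 22.3) in vivo, again with and without IL-1β. The intervals of the 2 libraries overlapped at each stage.

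Jun, the partner that forms classical AP-1 with FOS, followed Fos in the poly(A) libraries. At 1 h it had 1.51 FPKM (0.288 to 2.59) with IL-1β, about 4.98 estimated fragments, and was listed at 0 without it, where 3 fragments would be worth 2.13 FPKM. At day 3 it had 4.06 FPKM (2.28 to 5.71) with IL-1β and 5.55 FPKM (3.64 to 7.45) without it. In vivo it had 134 FPKM (115 to 144) with IL-1β and 29.9 FPKM (23.8 to 36.0) without it. As for Fos, both in vivo libraries lay above every cultured one in FPKM.

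Junb and Jund supplied most Jun transcripts throughout. Junb, which in T helper cells partners BATF, had 51.0 FPKM (39.4 to 62.4) and 29.1 FPKM (17.5 to 40.7) at 1 h with and without IL-1β. It had 259 FPKM (217 to 266) with IL-1β and 209.7 FPKM (175 to 214) without it at day 3. In vivo it had 703 FPKM with IL-1β, above its own upper bound (583 to 660), and 296 FPKM (243 to 298) without it. Junb was thus highest in FPKM in vivo with IL-1β, where it ranked 46th of all symbols, against 130th in vivo without IL-1β. It ranked 68th and 75th at 1 h and 221st and 223rd at day 3, with and without IL-1β.

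Jund, the constitutive Jun gene, and Atf3 differed less over the 4 poly(A) libraries than Fos, Fosb and Jun did. Jund had 18.5 FPKM (13.4 to 23.3) and 22.0 FPKM (14.1 to 29.8) at 1 h with and without IL-1β. It had 292 FPKM (259 to 301) and 285 FPKM (253 to 294) at day 3, and 324 FPKM (282 to 328) and 279 FPKM (244 to 288) in vivo, with and without IL-1β. The 4 poly(A) intervals of Jund all overlapped. Atf3 had 2.51 FPKM (0.465 to 4.18) and 4.69 FPKM (1.08 to 8.67) at 1 h, 18.8 FPKM (13.2 to 24.2) and 15.9 FPKM (10.9 to 20.7) at day 3, and 28.2 FPKM (19.9 to 35.3) and 13.6 FPKM (8.79 to 18.3) in vivo, with and without IL-1β. Only the in vivo pair of Atf3 did not overlap within a stage.

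**Figure D1:**
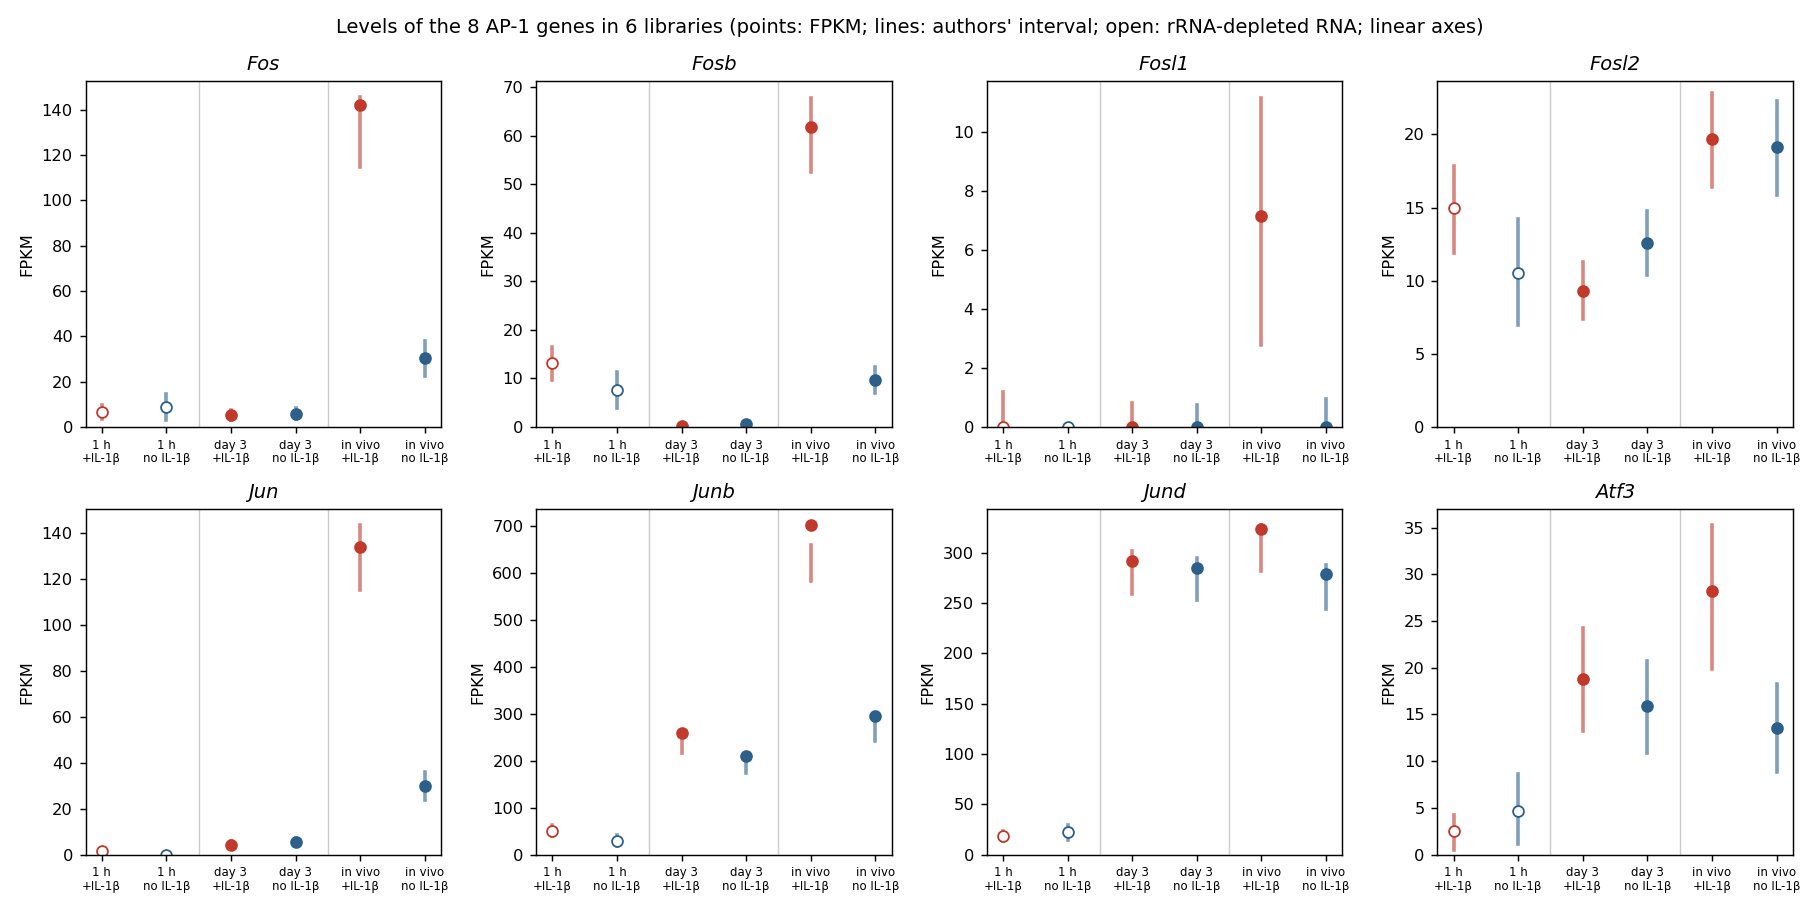
Each panel plots 1 gene's FPKM (linear axis) in the 6 libraries, with the authors' interval as a line, red with IL-1β and blue without it, open points for rRNA-depleted RNA. In FPKM, Fos, Fosb, Fosl1, Jun and Junb peaked in vivo with IL-1β, at 142, 61.8, 7.13, 134 and 703 FPKM, while Jund kept between 279 and 324 FPKM in the 4 poly(A) libraries. The 1 h libraries differ from the other 4 in RNA selection as well as in stage.

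Over the 4 poly(A) libraries, the log2(FPKM + 1) range was 5.75 for Fosb, 4.74 for Jun, 4.55 for Fos, 3.02 for Fosl1, 1.74 for Junb, 1.01 for Atf3, 1.00 for Fosl2 and 0.21 for Jund. In all 8 genes the highest of these 4 libraries was in vivo with IL-1β. The lowest was day 3 with IL-1β for Fos, Fosb, Fosl2 and Jun, day 3 without IL-1β for Junb, and in vivo without IL-1β for Jund and Atf3, with Fosl1 at 0 in all but 1.

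After 1 h of culture, which asks for the immediate effect of IL-1β, 5 of the 8 genes could be compared and none was counted, against 7.72% higher and 0.214% lower (7.93% in all) of 933 compared genes. The log2 ratios of IL-1β over no IL-1β were -0.37 for Fos, 0.71 for Fosb, 0.47 for Fosl2, 0.79 for Junb and -0.24 for Jund, all with overlapping intervals. The median over all compared genes was 0.30. Atf3 and Jun were under the floor in both libraries. With as few as 7.97 estimated fragments for Fos and 12.9 for Fosb in the library without IL-1β, the bounds of the FPKM ratio were wide, from 0.245 to 3.15 for Fos and from 0.858 to 4.17 for Fosb, and a 2-fold difference lay inside both.

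Of the genes around AP-1 at 1 h, most lay under the floor in both libraries and could not be compared. Of the other immediate early genes, 14 of 16 measured reached the floor of 5 FPKM and 1 was counted higher, Cd69, an early activation marker (51.2 FPKM with IL-1β and 23.3 FPKM without it, log2 ratio 1.10). It was no longer counted with a pseudocount of 5 (0.99), with a median ratio of 1 (0.89), with the length trend removed (0.73) or with T cell markers scaled to a median ratio of 1 (0.91). Egr1, a zinc finger factor induced by the same kinases, had 47.4 FPKM with IL-1β and 35.9 FPKM without it. The floor was reached by 2 of 18 measured MAP kinase and T cell receptor kinases, 1 of 6 SRF and ternary complex genes and 3 of 8 MAP kinase feedback inhibitors. It was reached by 4 of 9 AU-rich decay genes, 4 of 18 leucine zipper relatives, 2 of 8 NFAT and calcineurin genes and 1 of 3 regulators of Jun and Fos protein. None of the genes at the floor in these 7 lists was counted, and those under it could not be. Of 8 measured genes with known AP-1 sites 2 reached the floor, and 1 of them, Cd69, which is on both lists, was counted.

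At day 3, the end of the differentiation culture, 6 of the 8 genes could be compared and again none was counted, against 1.29% higher and 2.15% lower (3.44% in all) of 7962 compared genes. The balance of that background depends on the setting: 103 genes were higher and 171 lower on the values as deposited, against 103 and 87 with the length trend removed and 72 and 40 with a pseudocount of 5. The log2 ratios were -0.16 for Fos, -0.40 for Fosl2, -0.37 for Jun, 0.30 for Junb, 0.03 for Jund and 0.23 for Atf3, around a median of -0.05 for all compared genes. Junb was the only one of the 6 whose intervals stood apart, at a ratio of FPKM of 1.23 (1.01 to 1.53 between the bounds), short of the 2-fold limit. For Jund the bounds of the FPKM ratio were 0.881 and 1.19, and for Fos 0.354 and 2.20, so a 2-fold difference in Jund lay outside what the intervals allow and one in Fos did not.

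Of the genes around AP-1 at day 3, 8 were counted, against 1.29% higher and 2.15% lower of all compared genes. Their difference from these shares was not tested. The floor of 5 FPKM was reached by 20 leucine zipper relatives, 21 kinases, 8 SRF and ternary complex genes and 8 feedback inhibitors. It was also reached by 18 other immediate early genes, 8 NFAT and calcineurin genes and 7 protein regulators. Among 24 measured leucine zipper relatives, Maff, a small Maf protein, was higher (7.96 FPKM with IL-1β and 2.42 FPKM without it, log2 ratio 1.39). Lower with IL-1β were Map2k6, a p38 kinase kinase (1 of 24 kinases, -1.10), Elk4, a ternary complex factor (1 of 10, -1.24), the ERK pathway inhibitors Spred2 (-1.63) and Dusp4 (-1.40; 2 of 12 feedback inhibitors), Nr4a3 (1 of 21 other immediate early genes, -1.52), Nfatc3 (1 of 9 NFAT genes, -1.12) and Det1, which targets JUN for degradation (1 of 8 protein regulators, -1.18). At this stage the log2 ratio was lower for longer transcripts across 7240 genes (Spearman -0.53, across genes, which are not independent replicates). With that trend removed, 7 of these 8 genes were still counted in the same direction and Nfatc3 was not (-0.74). With a pseudocount of 5, Dusp4 and Nr4a3 alone of the 8 were still counted, and with a floor of 10 FPKM Maff, Map2k6, Elk4 and Spred2 were not. None of 9 AU-rich decay genes and none of 14 measured genes with known AP-1 sites was counted. Batf had 170 FPKM with IL-1β and 122 FPKM without it, Batf3 had 40.3 and 21.7 FPKM, and Irf4 had 94.7 and 118 FPKM; none of the 3 was counted.

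In vivo, where cells of both arms had spent 1 week in a host, 6 of the 8 genes were counted higher in the IL-1β arm and none lower. The background in this comparison was 6.23% higher and 3.48% lower of 8639 genes. The median log2 ratio over the 8 genes was 1.69, with Fosl1 taken on the FPKM + 1 scale, and 0.03 over all compared genes. Fosb had a log2 ratio of 2.57, a 6.43-fold ratio of FPKM (4.26 to 9.71 between the bounds). Fos had 2.19, which is 4.70-fold (3.03 to 6.54). Jun had 2.13, which is 4.49-fold (3.20 to 6.04). Of all compared genes only 1.25% to 1.78% had larger ratios than each of these 3 immediate early genes.

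The other members counted higher in vivo were Junb, Atf3 and Fosl1. Junb had a log2 ratio of 1.24, a 2.37-fold ratio of FPKM (1.95 to 2.72). Atf3 had 1.01, which is 2.08-fold (1.09 to 4.01), just past the limit, and it was no longer counted with a pseudocount of 5 (0.84), with equal upper quartiles (0.99) or with the length trend removed (0.97). Fosl1 was counted higher against a library that lists it at 0, so it has no fold. Fosl2, at 0.04, and Jund, at 0.21, were not counted, and their FPKM ratios lay between 0.736 and 1.44 and between 0.979 and 1.35. For these 2 genes a 2-fold difference thus lay outside the bounds.

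**Figure D2:**
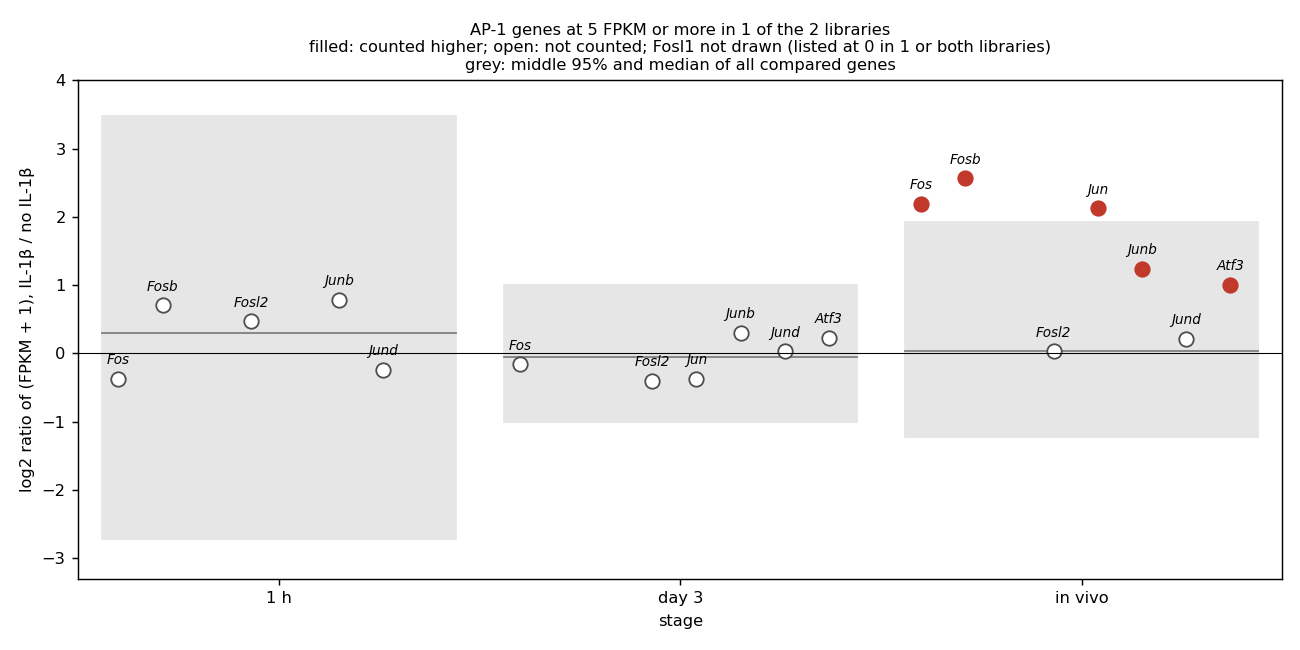
The log2 ratio of (FPKM + 1), IL-1β over no IL-1β, is plotted at each stage for the AP-1 genes above the floor, filled where counted higher, over a grey band for the middle 95% of all compared genes with their median as a line. At 1 h and day 3 every member lies inside the band, while in vivo Fosb (2.57), Fos (2.19) and Jun (2.13) lie above it and Fosl2 (0.04) lies at the median. Fosl1, counted higher in vivo, is not drawn because it is listed at 0 without IL-1β.

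Markers of other cells moved with the in vivo arm. Of 12 epithelial markers 9 were higher with IL-1β and their sum was 2.60 times as large. Of 12 stromal and endothelial markers 7 were higher, with sums of 213 and 71.8 FPKM with and without IL-1β (2.97-fold). Of 19 measured myeloid markers 4 were higher, with sums of 3116 and 1378 FPKM (2.26-fold), and erythroid and platelet markers summed to 742 and 391.5 FPKM (1.89-fold, 2 of 6 measured higher). Marco, a macrophage receptor, was listed at 0 in both arms, and the stromal markers Dcn and Pdgfra were listed at 0 without IL-1β and had 7.89 and 5.37 FPKM with it. The 12 T cell markers summed to 2905 and 2886 FPKM (1.01-fold), with none counted, B cell markers to 48.1 and 50.2 FPKM (0.958-fold, 1 of 7 higher and 1 lower), and NK and CD8 markers to 28.0 and 22.9 FPKM (1.22-fold, 1 of 4 higher). The FPKM ratios of Fos, Fosb and Jun exceeded each of these sums' ratios, and those of Junb and Atf3 lay among them. Single markers differed by as much as the AP-1 genes: on the log2(FPKM + 1) scale the ratio was 2.87 for Col1a1 (12.0 FPKM with IL-1β and 0.778 FPKM without it), 2.84 for Col1a2, 2.59 for Col3a1 and 2.15 for Sftpb. The part of these cells' RNA in the AP-1 values was not tested.

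The genes around AP-1 in vivo were uneven. Of the 22 other immediate early genes 11 were higher with IL-1β and none lower, all 22 ratios were above 0, and the median log2 ratio was 1.32. They included Cyr61, a secreted matrix protein, with 13.7 FPKM in the IL-1β arm and 0.387 FPKM in the other (3.41). Cd69 was at 53.3 and 9.01 FPKM (2.44), Gadd45b, a stress sensor of the p38 pathway, at 91.9 and 16.1 FPKM (2.44), and Ppp1r15a, which restores translation after stress, at 107 and 20.2 FPKM (2.34). Egr1 was higher too, with 112 FPKM in the IL-1β arm and 33.5 FPKM in the other (1.71). Of 12 MAP kinase feedback inhibitors 3 were higher: Dusp1, a phosphatase of p38 and JNK, at 120.4 and 43.5 FPKM (1.45), Spry1 (1.40) and Dusp2 (1.39). Zfp36, which encodes the protein that binds AU-rich elements and destroys Fos messages, was higher, with 364 FPKM in the IL-1β arm and 99.8 FPKM in the other (1.86). It was the only one of 9 AU-rich decay genes to be counted.

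For the kinases and factors upstream, the counts stand beside 6.23% higher and 3.48% lower of all compared genes. The floor was reached by 22 kinases, 8 SRF and ternary complex genes, 8 NFAT and calcineurin genes and 6 protein regulators. At these shares, lists this short would hold few counted genes or none. Of 24 MAP kinase and T cell receptor kinases only Prkcq, the protein kinase C of the T cell synapse, was counted (59.2 FPKM with IL-1β and 25.7 FPKM without it, 1.17). None of 10 SRF and ternary complex genes, 9 NFAT and calcineurin genes or 8 protein regulators was counted. Among 27 measured leucine zipper relatives Maf (1.48), Cebpa (1.42) and Cebpb (1.12) were higher, Maf not with a pseudocount of 5 (0.91) or a floor of 10 FPKM. Cebpa and Cebpb are known from myeloid and epithelial cells. Cebpb was also present in the day 3 cultures, at 44.6 and 33.9 FPKM with and without IL-1β, where Cebpa had 0 and 0.679 FPKM. The cells that gave these transcripts were not examined. Batf had 108 FPKM with IL-1β and 120.1 FPKM without it, and Irf4 had 85.8 and 71.0 FPKM, neither counted. Of 18 genes with known AP-1 sites 6 were higher: Il3, listed at 0 without IL-1β and at 12.4 FPKM with it, Ifng (2.81), Cd69 (2.44), Csf2 (1.97), Gzmb (1.20) and Il5 (1.19), cytokine and effector genes of activated T cells. The median log2 ratio of these 18 was 0.98.

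The proximal promoters of the 5 members that were higher in vivo and have a promoter entry are shown because these genes were higher together. Each is the 120 bases upstream of the RefSeq start site on the gene's own strand (GRCm38.p6, a later build than that of the files). They are Fos at chr12:85473770-85473889 (+), Fosb at chr7:19310046-19310165 (-), Jun at chr4:95052223-95052342 (-), Junb at chr8:84978749-84978868 (-) and Atf3 at chr1:191183334-191183453 (-). Capitals mark matches, on either strand, to a CREB/ATF core, a CRE-like site, a TATA box or a CCAAT box, whose letters are given after the sequences.
Fos: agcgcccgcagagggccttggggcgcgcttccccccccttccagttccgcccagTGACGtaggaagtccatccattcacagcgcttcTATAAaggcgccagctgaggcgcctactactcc
Fosb: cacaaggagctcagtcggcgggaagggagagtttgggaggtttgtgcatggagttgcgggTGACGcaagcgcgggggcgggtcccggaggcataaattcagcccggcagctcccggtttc
Jun: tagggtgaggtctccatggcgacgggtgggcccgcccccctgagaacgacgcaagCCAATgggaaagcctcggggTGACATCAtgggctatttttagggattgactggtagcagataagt
Junb: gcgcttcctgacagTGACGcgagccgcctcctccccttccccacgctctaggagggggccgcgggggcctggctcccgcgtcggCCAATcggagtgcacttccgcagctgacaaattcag
Atf3: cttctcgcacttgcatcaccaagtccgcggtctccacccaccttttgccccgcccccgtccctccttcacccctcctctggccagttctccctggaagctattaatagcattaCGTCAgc

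TGACG, the core of the site bound by CREB and ATF proteins, was present in 4 of the 7 members with a promoter entry (Fos, Fosb, Junb and Atf3, in Atf3 on the reverse strand) over 250 bases before and 50 after the start. Of 27025 RefSeq promoters of this length 21.0% hold it. Jun held TGACATCA, a match to TGACNTCA, found in 8.97% of promoters; in the Jun gene of other mammals such a site is bound by JUN and ATF2. TATAA was found in 2 of 7 members and 25.5% of promoters. The Fos match began at position -33 from the start site, and the Junb match at position 0, so it does not lie upstream of the start. CCAAT was found in 3 of 7 members and 37.9% of promoters, and the κB motif in 3 of 7 (Fos, Fosb and Fosl2) and 8.18%. The AP-1 site TGANTCA (7.93% of promoters), the full CRE TGACGTCA (1.88%), the STAT motif TTCNNNGAA (8.47%) and the CArG box (1.57%) had no match in these windows in any of the 7. Sequence more than 250 bases upstream was not searched, so sites there, of Fos or of any other member, would be missed. A match is a description of the letters and not a measured site. In the files' build, mm9, the genes lie at chr12:86814851-86818219 (Fos), chr7:19888045-19895394 (Fosb), chr19:5447698-5455938 (Fosl1), chr5:32438845-32460212 (Fosl2), chr4:94715727-94718913 (Jun), chr8:87500808-87502647 (Junb), chr8:73221638-73224515 (Jund) and chr1:192994176-193007212 (Atf3).

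Transfer was compared with the culture it started from in each arm. With IL-1β, 6 of 8 genes were counted higher in vivo than at day 3 and none lower, against a background of 12% higher and 5.87% lower of 8572 genes. The log2 ratios were 5.75 for Fosb, 4.74 for Jun, 4.55 for Fos, 1.44 for Junb and 1.00 for Fosl2, with Fosl1 listed at 0 at day 3. Jund had 0.15 and Atf3 0.56 and were not counted. The value for Fosb rests on about 0.999 estimated fragments at day 3, and its FPKM ratio had 109 as the smaller bound and no upper one, since the day 3 interval starts at 0. Fosl2 was on the limit and was not counted with a pseudocount of 5 (0.78) or with the length trend removed (0.59). Markers of other cells were higher in this step too, 11 of 12 epithelial, 10 of 12 stromal and endothelial and 15 of 19 measured myeloid markers, against none of 12 T cell markers. Their part in these ratios was not tested.

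Without IL-1β, 3 of the 7 compared genes were higher in vivo than at day 3 and none lower, against 2.13% higher and 0.665% lower of 8126 genes. Fosb had a log2 ratio of 2.71, Jun 2.24 and Fos 2.19. These are the same 3 genes that led with IL-1β. Fosl2 had 0.57, Junb 0.50, Jund -0.03 and Atf3 -0.21, and the intervals of Fosl2 and Junb stood apart. Fosb, at 9.61 FPKM in vivo, was not counted with a floor of 10 FPKM. In this arm, too, other cells' markers were higher in vivo: 8 of 12 epithelial, 3 of 7 measured stromal and endothelial and 11 of 18 measured myeloid markers, against none of 12 T cell markers. Their part in the AP-1 values was not tested.

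The difference between the arms in this step was 3.03 on the log2 scale for Fosb, 2.50 for Jun, 2.35 for Fos, 0.94 for Junb, 0.78 for Atf3, 0.43 for Fosl2 and 0.18 for Jund. Fosl1 has no value here because it is listed at 0 in 3 of the 4 libraries. It equals the in vivo ratio minus the day 3 ratio of IL-1β, because the 4 libraries are the same, and it was not tested. The genes around AP-1 showed counts that differed in the same step. With IL-1β 12 of 22 other immediate early genes, 5 of 12 feedback inhibitors and 3 of 9 AU-rich decay genes (Zfp36, Zfp36l1 and Zfp36l2) were higher in vivo. Without IL-1β the counts were 1 of 21 (Klf4), 1 of 12 (Dusp1) and 0 of 9. The share of all compared genes counted higher also differed between the arms, at 12% with IL-1β and 2.13% without it. Of 18 measured genes with known AP-1 sites, 2 were higher in vivo with IL-1β (Ccnd1 and Cd69) and none lower. The share of all compared genes counted higher in that arm was 12%. Without IL-1β, 0 of 18 were higher and 1, Ifng, was lower, against 0.665% lower of all compared genes. The difference between these counts was not tested. Among leucine zipper relatives Batf3 (-1.70) and Crem (-1.08) were lower in vivo than at day 3 with IL-1β.

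The early culture step differs in RNA selection as well as in time, and these cannot be told apart. From 1 h to day 3 almost every compared gene was counted higher, 95.5% of 7392 with IL-1β and 95.7% of 7689 without it. Lower were 0.595% and 0.299%, and 96% were counted in either direction in each arm. Scaling to a median ratio of 1 lowers the day 3 values by a log2 factor of -3.32 with IL-1β and -3.46 without it. Fosb was lower at day 3 than at 1 h in both arms, with log2 ratios of -3.60 with IL-1β and -2.42 without it, and was among the few genes to be so on the values as deposited. Fos (-0.31 and -0.52) and Fosl2 (-0.63 and 0.24) were not counted, and relative to the median gene they were lower, with log2 ratios of -2.33 and -2.68 for Fos and -3.04 and -2.42 for Fosl2 with and without IL-1β.

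Junb, Jund and Atf3 were counted higher at day 3 as deposited, but not relative to the median gene. Their log2 ratios were 2.32, 3.91 and 2.49 with IL-1β and 2.81, 3.64 and 1.57 without it. After median scaling those of Junb were -0.95 and -0.59, those of Atf3 -0.29 and -1.22, and those of Jund 0.63 and 0.22, so Junb and Atf3 changed direction. Jun was higher at day 3 without IL-1β, where it was listed at 0 at 1 h, and was under the floor with IL-1β. The share of FPKM held by the rRNA precursor Rn45s was 24.7% and 41.3% at 1 h with and without IL-1β, and its part in these ratios was not tested.

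The mix of Fos transcripts differed between the stages. Fosl2 held 43.0% and 38.9% of the summed FPKM of the 4 Fos genes at 1 h, 63.8% and 66.1% at day 3, and 8.52% and 32.4% in vivo, with and without IL-1β. Fos held 19.0% and 32.7% at 1 h, 35.1% and 30.7% at day 3, and 61.6% and 51.3% in vivo. Fosb held 37.9% and 28.4% at 1 h, 1.16% and 3.25% at day 3, and 26.8% and 16.3% in vivo, and Fosl1 held 3.09% in vivo with IL-1β. At day 3 the weakly activating FRA2 transcript was thus the major one in both arms, and in vivo Fos was.

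Among the Jun genes Jun itself was the least in every library. Jund exceeded Junb at day 3 in both arms, at 52.6% and 57.0% of summed Jun FPKM with and without IL-1β, against 46.7% and 41.9% for Junb. In vivo Junb held 60.5% with IL-1β and 49.0% without it, Jund 27.9% and 46.1%, and Jun 11.6% and 4.94%. Jun genes outweighed Fos genes in every library: the ratio of summed FPKM was 2.05 and 1.89 at 1 h, 38.0 and 26.3 at day 3, and 5.03 and 10.3 in vivo, with and without IL-1β. Batf, an alternative partner of Jun proteins, stood at 11.6 and 6.41 times the summed Fos genes at day 3, and at 0.466 and 2.04 times in vivo, with and without IL-1β. Transcript levels do not give the amounts of protein or of pairs.

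**Figure D3:**
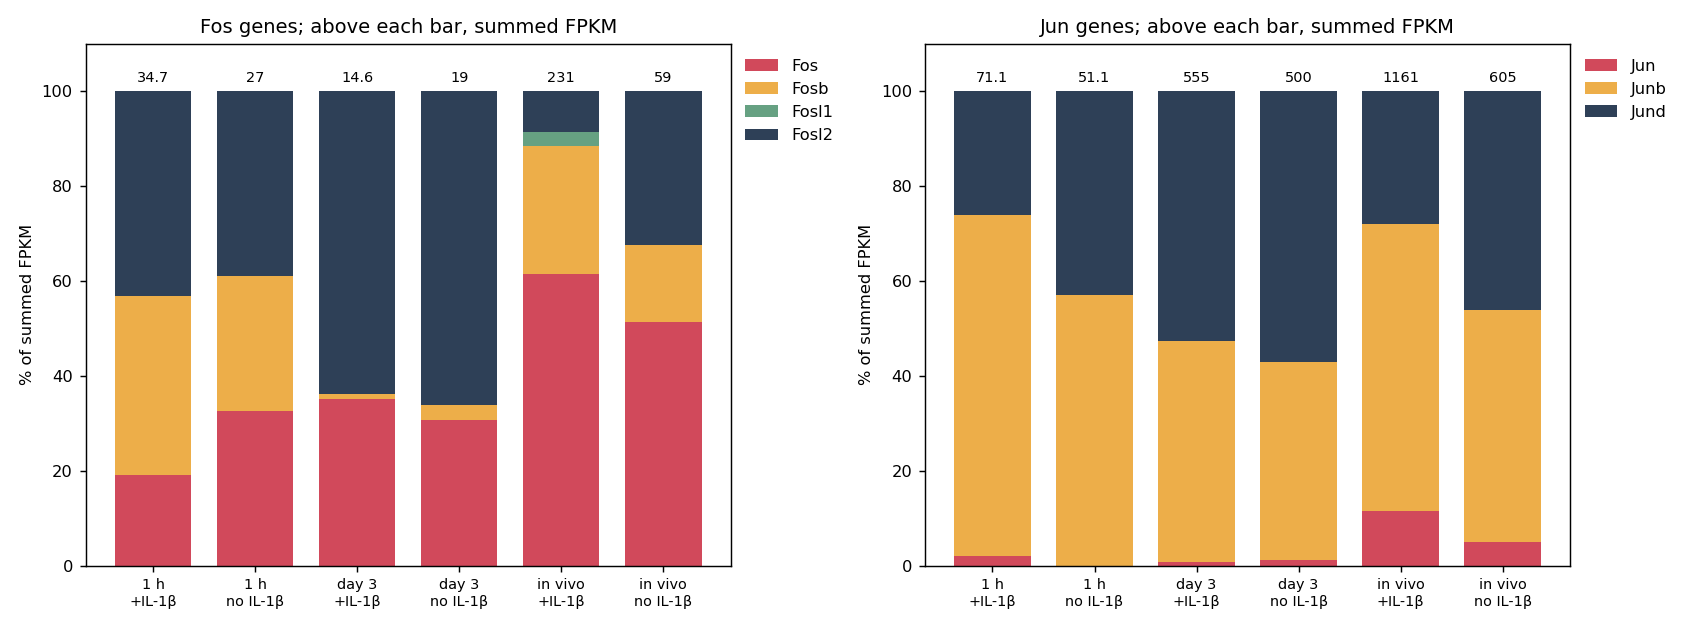
Stacked bars show each gene's share (%) of the summed FPKM of the Fos genes (left) and of the Jun genes (right) in the 6 libraries, with the summed FPKM above each bar. Fosl2 is the major Fos gene at day 3 (63.8% with IL-1β and 66.1% without it) and Fos in vivo (61.6% and 51.3%), and the sum of the Fos genes is 231 FPKM in vivo with IL-1β and 59.0 FPKM without it.

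The genes with the profiles nearest to each member were sought over the 4 poly(A) libraries, by the Euclidean distance of centred log2(FPKM + 1) values. The search covered 8499 genes with 5 FPKM or more in at least 1 of the 4 and above 0 in all 4. Genes listed at 0 in any of them, such as the markers Csf1r, Sftpd and Dcn, could not be neighbours. Fosl1, itself listed at 0 at day 3, was thus matched only to genes without such values. Fos and Jun were nearest to each other among the members, at a distance of 0.20. The nearest other genes were Hc (0.34), Ager (0.44), Rbpms (0.47), Ctsh (0.59) and Selenbp1 (0.61) for Fos, and Ager (0.33), Ctsh (0.47), Hc (0.49), Rbpms (0.57) and Ly6c1 (0.64) for Jun. For Fosb they were Sparc (0.50), Ctsh (0.55), Lamp3 (0.71), Cd36 (0.72) and Napsa (0.76). Ager and Lamp3 are among the epithelial markers and Sparc among the stromal ones. The other neighbours are on no marker list used here, and the cells that express them were not examined. Ager had 137 FPKM in vivo with IL-1β and 41.5 FPKM without it, against 4.66 and 6.15 FPKM at day 3. What these genes share with Fos, Jun and Fosb beyond the 4 values was not tested.

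Other members had different neighbours. Atf3 was nearest to Tnf (0.04), an inflammatory cytokine gene, Rabac1 (0.05), Sqstm1 (0.08), Ccr7 (0.10) and Zfp429 (0.11). Junb was nearest to 2810474O19Rik (0.08), Phf1 (0.09), Csf2rb, Timp2 and Sox4. Fosl2 was nearest to Grina (0.06), Acss1, Zc3h6, Rptor and Ascc3, and Fosl1 to Fam26f, Ppp1r15a, Slc15a2, Sept4 and Col1a1. None of the neighbours of Atf3, Junb and Fosl2 is on a marker list of another cell type, and Col1a1, a neighbour of Fosl1, is on the stromal list. Absence from these short lists does not show in which cells a gene was expressed.

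**Figure D4:**
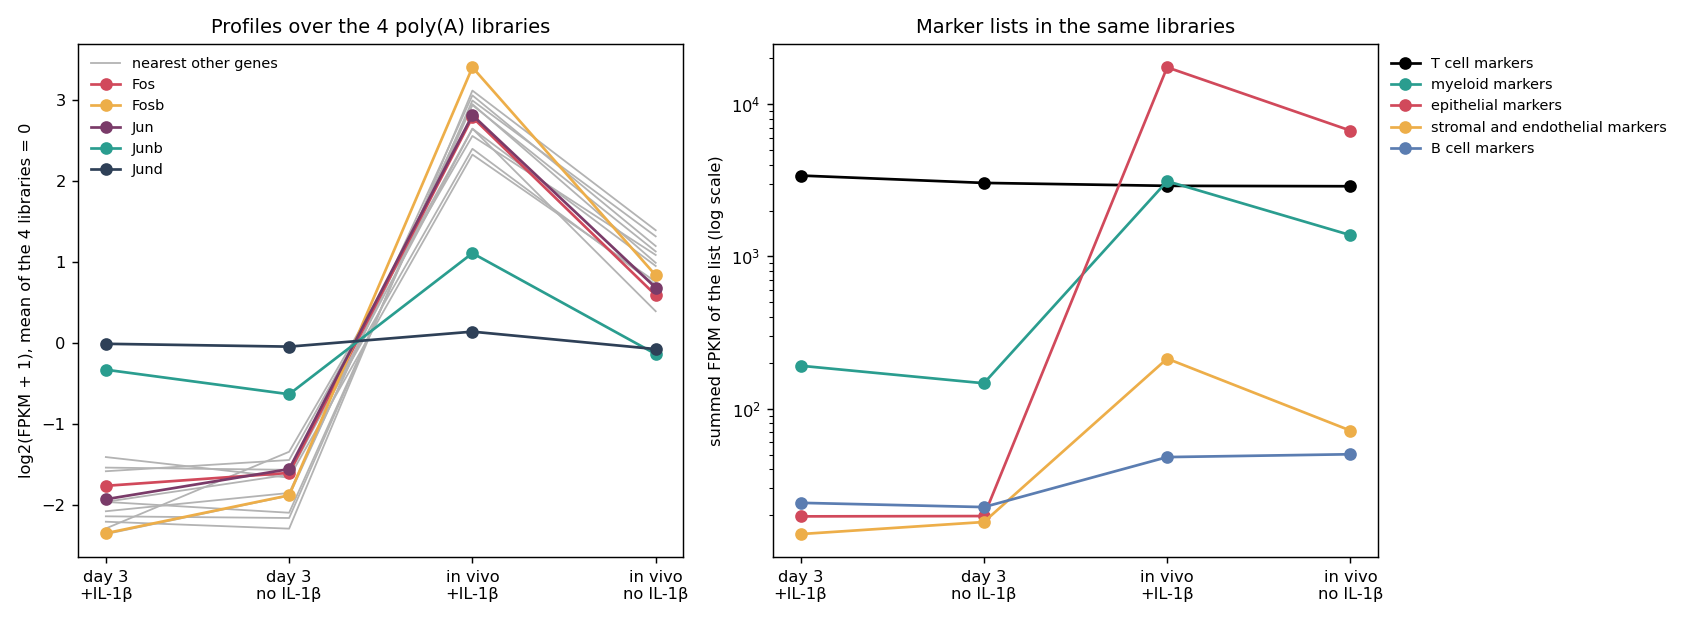
Left, log2(FPKM + 1) centred on the mean of the 4 poly(A) libraries for 5 members and, in grey, the other genes nearest to Fos, Jun or Fosb; right, the summed FPKM (log axis) of 5 marker lists in the same libraries. Fos and Jun nearly coincide (distance 0.20), Jund is almost flat (range 0.21), and the epithelial sum is 17427 FPKM in vivo with IL-1β and 6694 FPKM without it while the T cell sum is 2905 and 2886 FPKM.

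The test the design allows treats the stages as blocks and asks for an IL-1β difference common to all 3, with limma on log2(FPKM + 1) over 8946 genes and 2 residual degrees of freedom. No gene passed an adjusted p of 0.05 (0% of 8946), while 320 had an unadjusted p under 0.05; the smallest adjusted p was 0.937. Among the 8 genes Junb had the smallest unadjusted p in limma (0.042), with a log2 difference of 0.78 (SE 0.32), an adjusted p of 0.937 and a ratio above 0 at all 3 stages. Jun had 1.03 (SE 0.47, adjusted p 0.937 by limma), Fosb 0.93 (SE 0.53, adjusted p 0.937 by limma) and Fos 0.56 (SE 0.50, adjusted p 0.938 by limma). The stage blocks assume 1 common difference, whereas Fos, Fosb, Fosl2, Jun, Jund and Atf3 had ratios of both signs across stages. Among these ratios, those of Jun and Atf3 at 1 h and of Fosb at day 3 came from values under the floor. Without the 1 h stage limma called 34 genes (0.382% of 8901) and none of the 8, whose smallest adjusted p was 0.427, for Fosl1.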

How the data were processed

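RNA-seq of 6 libraries was used, 1 per group, with groups taken from the sample titles. Per the submitters' processing notes the authors used TopHat and the mouse build mm9; the sources used here do not name the tool that made the gene values. Per the file headers, the deposited values are the authors' FPKM with interval bounds. Entries with a status other than OK (285 of 23700 per file) were left out, and entries with the same symbol were summed (190 of 23091 symbols). Between 19 and 319 FPKM per file exceed their own upper bound and were used as deposited.

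Ratios are log2 of (FPKM + 1), and the FPKM + 1 scale understates changes of low genes. List counts take genes that reach 1 FPKM in either library. Depth was estimated by the scale at which 60.3% to 65.2% of low values were within 0.05 of a whole fragment number, against 6.15% to 7.54% at the median scale. Fragment numbers are therefore estimates, and no count test was run. The value of 3 fragments as the limit for a listed 0 covers counting error only. An FPKM listed at 0 may also be a failed estimate. Starts in the files count from 0 and are given counted from 1. Promoters come from RefSeq tables, which matched 7 of the 8 genes; Fosl1 has no entry. Python 3.11.15, R 4.3.3 and limma 3.58.1 were used, and the rules were tested on simulated data.

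The members, the 16 lists beside them, the tests and the alternatives were chosen with earlier results of these data known. Named genes are the 8 members, up to 4 counted members per list with the largest ratios for the IL-1β comparisons, some genes named throughout (Batf, Batf3, Irf4, Egr1, Dusp1 and Zfp36; 1 other is not reported here), and the 5 nearest genes per member; other named genes (the marker genes, further counted list members and Rn45s) were chosen after seeing values. Alternatives were other pseudocounts, floors, scalings, a length correction, use of the intervals and entry status, and, chosen after seeing the data, a scaling to the T cell markers.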

Additional observations from a re-analysis of the deposited data

How the results depend on the processing

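In the IL-1β comparison in vivo the count was 5 or 6 of 8 genes under every alternative run, and the same comparison at day 3 gave 0 under every one. Without a floor 1 gene was counted at 1 h (Jun, listed at 0 without IL-1β). In the comparison of day 3 with 1 h without IL-1β, 5 genes were counted as deposited, 4 higher and 1 lower. A floor of 10 FPKM gave 3, all higher (Junb, Jund and Atf3). A median ratio of 1 and equal upper quartiles each gave 3, all lower (Fos, Fosb and Fosl2). With IL-1β 3 were higher and 1 lower as deposited, against 0 higher and 3 or 4 lower under the 4 scalings below. The limma fit without the 1 h stage called 34 genes in place of 0.

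Every sign change of a value counted as deposited or under the alternative was in day 3 against 1 h. With IL-1β, the log2 ratio of Junb became -0.95 with a median ratio of 1, -1.42 with equal upper quartiles, -1.57 with the length trend removed and -2.27 with T cell markers scaled to a median ratio of 1. That of Atf3 became -0.29, -0.59, -0.62 and -1.04 under the same 4 settings, and that of Jund became -0.048 and -0.70 under the last 2. Without IL-1β, Junb became -0.59, -0.89, -1.11 and -1.95 and Atf3 -1.22, -1.40, -1.49 and -1.91 under the 4 settings, and Jund became -0.083, -0.35 and -1.16 under the last 3. Fosl2 without IL-1β, not counted as deposited (0.24), was counted lower under the 4 settings, at -2.42, -2.59, -2.07 and -3.03. These settings shift every gene by construction; which scale is right for libraries of different RNA selection was not tested. Of the values of single genes, 496 kept direction and side of the limit, 17 lost the count in the same direction, 13 gained it and the 25 above changed sign. Another 9, counted on neither scale, also changed sign: Jun in day 3 against 1 h with IL-1β (1.01 as deposited, -0.82 to -1.12 under the 4 settings) and Jund near 0 (IL-1β at day 3, in vivo against day 3 without IL-1β).

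No block by replicate number was run, since each group is 1 library and the labels carry no such numbers. The limma fit instead sets the arms beside each other within stages; it leaves 2 residual degrees of freedom, and at 470000 estimated fragments the 1 h library without IL-1β resolves only highly expressed genes.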
